A study of Mus musculus with 14 samples.

Results

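Cytosolic heat shock genes, 10 in all, were followed in mouse hearts by 3′ tag RNA sequencing, which counts 1 read near the end of each captured transcript. The members are the inducible HSP70 genes Hspa1a and Hspa1b, the constitutive HSP70 gene Hspa8, the HSP110 gene Hsph1, the HSP40 gene Dnajb1, the HSP90 gene Hsp90aa1, and the small heat shock protein genes Hspb1, Hspb6, Hspb7 and Cryab. They were chosen by symbol, and all 10 were found among the 54532 gene identifiers of the count files. The 14 libraries were whole hearts of C57BL/6 mice labelled as 180 days old, whereas the study's text gives a later age. There were 4 libraries labelled WT and 4 labelled YG8-800, a transgenic line with a null background of 1 mouse gene and a human transgene carrying an expanded GAA repeat, and the WT mice were littermates. The others were 3 KIKO-700 females and 3 KIKO-700 males, which carry 1 deleted allele and 1 allele with a GAA repeat inserted into an intron. WT hearts matched to KIKO-700 were not analysed here, so within this cohort the labels allow a comparison of the sexes alone. Both models carry their change in all cells of the animal, and whole-heart RNA mixes all cell types of the organ. Fewer cells of a type and less RNA per cell cannot be told apart in such samples.

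Cytosolic heat shock proteins are chaperones that bind unfolded or partly folded proteins. HSP70 proteins bind and release clients in cycles of ATP hydrolysis, HSP40 proteins bring clients and stimulate the hydrolysis, and HSP110 proteins exchange the nucleotide. HSP90 acts later on nearly folded clients, and small heat shock proteins hold unfolded clients without ATP. Several of these genes are induced by the transcription factor HSF1, which binds heat shock elements, arrays of inverted GAA units in their promoters. In the heart, the small heat shock proteins are abundant, and Cryab protects the desmin filaments and sarcomeres of cardiomyocytes.

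Heat shock element letters were looked for in RefSeq promoter windows of GRCm38.p6 (300 bases, from 250 before to 50 after the start), and 7 of the 10 members had a window. Hspa8, Hsp90aa1 and Cryab had none. The letters searched were GAANNTTC and TTCNNGAA, which read the same on both strands, and 3 alternating GAA and TTC units with the same spacing, which contain both. A pair was found in 5 of the 7 members (Hspa1a, Hspa1b, Hsph1, Hspb1 and Hspb6) and in 17.0% of all 27025 genes with windows. Hsph1 was the member with 3 units in a row, and 0.662% of genes held them. Its units lie after an annotated start and are not printed, nor is the Hspb6 pair, which lies in a window inside the gene. Dnajb1 and Hspb7 held neither set of letters in these windows. A match is a description of letters and not a site of binding. The upstream stretches of the HSP70 pair and of Hspb1 are shown, with the pairs in capitals. They lie on GRCm38.p6 at chr17:34972238-34972275 (minus strand), chr17:34959320-34959357 (minus strand) and chr5:135887787-135887844 (plus strand).
Hspa1a: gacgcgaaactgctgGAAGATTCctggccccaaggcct
Hspa1b: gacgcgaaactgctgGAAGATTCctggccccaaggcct
Hspb1: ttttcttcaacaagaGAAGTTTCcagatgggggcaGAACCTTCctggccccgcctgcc
The Hspa1a and Hspa1b stretches are the same 38 bases, and their whole windows were identical at 296 of 300 bases. The last 300 bases of their transcripts matched at 52.8% of aligned positions, so the copies differ where 3′ reads of this assay fall.

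Total counts ranged from 5226233 to 11650840 per library, and genes of mitochondrial DNA took 28.9% to 44.6% of them. Xist, the RNA of the inactive X chromosome, was between 38.0 and 52.6 CPM (counts per 1000000 counts of the library) in 5 of the 8 libraries of the YG8-800 cohort (WT 1, 2 and 4, YG8-800 1 and 3) and at 0.327 CPM or less in the others, although the study describes males. It is not settled here that the labels WT and YG8-800 give the genotypes, so each direction is that of the labels. KIKO-700 male 1 stood apart from the other males. Over genes with at least 20 counts in a pair, the chi-square per degree of freedom was 31.0 and 43.0 between it and the other males. It was 7.32 between those and 4.04 to 7.17 between the females. Between WT libraries it was 64.6 to 103.0 and between YG8-800 libraries 13.4 to 102.5. Most pairs within these groups thus differed more than male 1 did from the other males. The common biological coefficient of variation by edgeR was 0.351 in the YG8-800 cohort and 0.170 in KIKO-700. Levels of the members are CPM scaled over the 14 libraries by the trimmed mean of M values (TMM), and fold changes are from edgeR's quasi-likelihood test with TMM within each cohort.

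No member passed the test between libraries labelled YG8-800 and WT. At an adjusted p under 0.05, edgeR called 0 of 9 tested members and 0% of 11875 genes, and at an unadjusted p under 0.05 it called 0 members and 6.05% of genes. DESeq2 and limma-voom also called 0 members at both thresholds, with 7 and 0 genes at the adjusted one. The median log2 fold change of the members was 0.04 and that of all genes −0.01. The ranges of the groups overlapped for all 10 members, whereas they were apart for 3.88% of genes. Between KIKO-700 males and females, edgeR called 0 of 9 tested members at an adjusted p under 0.05 (0.0678% of 11801 genes) and 2 at an unadjusted p under 0.05 (7.14% of genes), Hspb7 and Hspb6, both higher in males. At the adjusted threshold DESeq2 called Hspb7 and limma-voom called no member, and at the unadjusted one limma-voom called 2, both higher in males. The ranges of the sexes were apart for Hspb6 and Hspb7, and for 12.6% of genes. Without KIKO-700 male 1, 4 of 9 members passed the adjusted threshold (7.06% of 12245 genes) and 7 the unadjusted one (21.3%), so that the comparison of the sexes turned on this library.

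**Figure D1:**
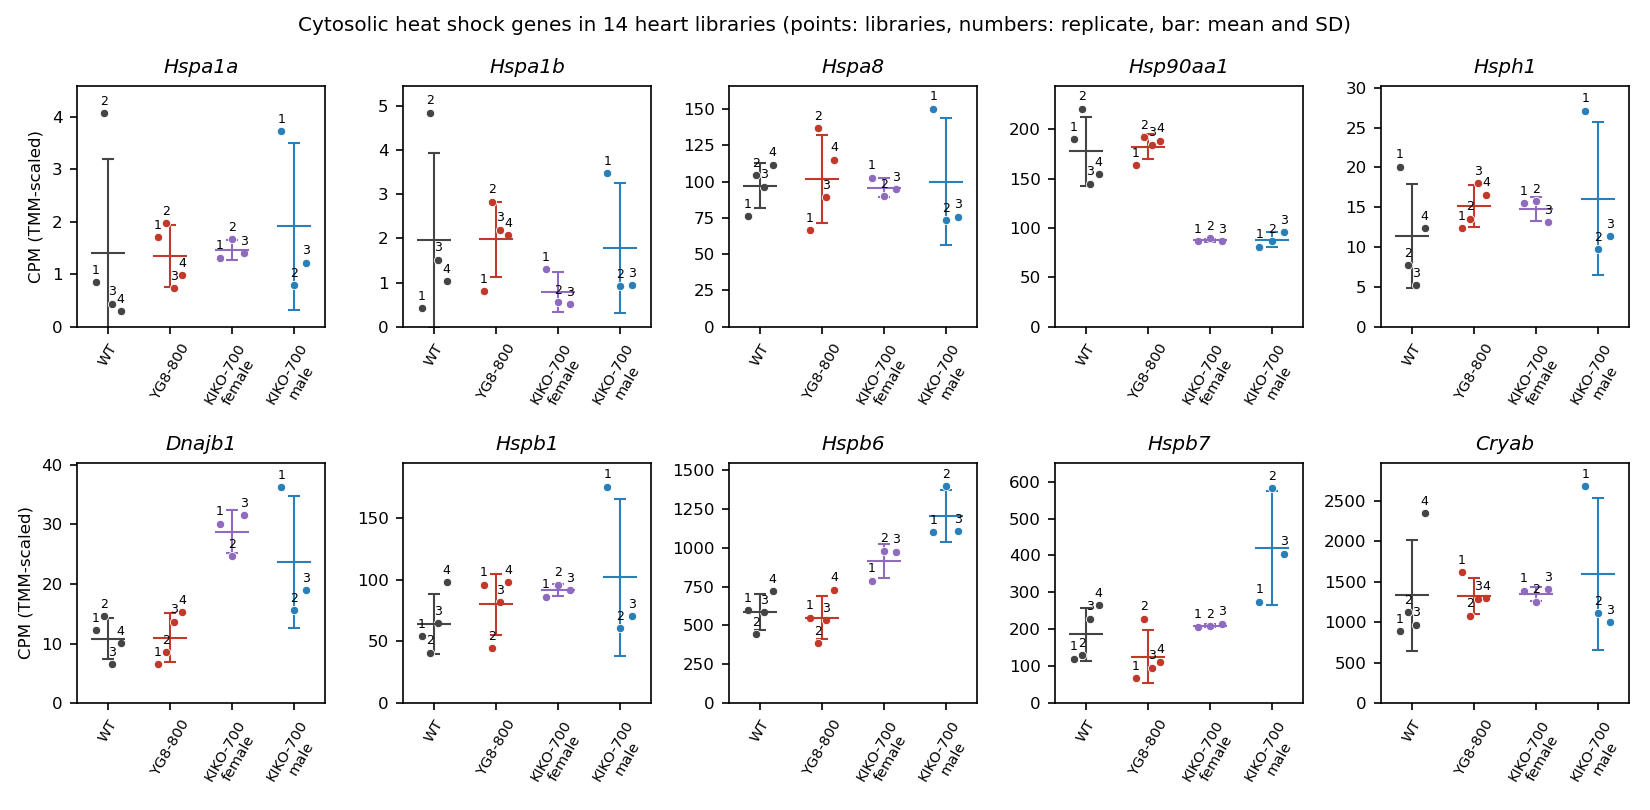
TMM-scaled CPM of the 10 members in each library, by label group, with the mean and SD as bars (SD bars are drawn down to 0 at most) and the replicate number above each point. KIKO-700 male 1 is the highest point of its cohort in 7 panels, and WT 2 is the highest point in the Hspa1a and Hspa1b panels.

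Hspa1a (chr17:34969190-34972156, minus strand) and Hspa1b (chr17:34956436-34959238, minus strand) encode nearly the same inducible HSP70 and are low in unstressed tissue. They were counted 2 to 51 and 4 to 61 times per library. Hspa1a was at 0.845, 4.06, 0.434 and 0.294 CPM in WT 1 to 4, and at 1.70, 1.97, 0.733 and 0.981 CPM in YG8-800 1 to 4. In KIKO-700 it was at 1.31, 1.66 and 1.40 CPM in females and at 3.72, 0.788 and 1.22 CPM in males. A single library was high in WT and in KIKO-700 males, WT 2 and male 1, and the remaining libraries of both cohorts lay between 0.294 and 1.97 CPM. Hspa1b was at 0.423, 4.86, 1.52 and 1.03 CPM in WT and at 0.800, 2.83, 2.20 and 2.07 CPM in YG8-800. It was at 1.31, 0.554 and 0.508 CPM in KIKO-700 females and at 3.48, 0.919 and 0.935 CPM in males. The same libraries, WT 2 and male 1, were highest for this copy.

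Each copy failed the filter on low counts in 1 comparison, Hspa1a in the YG8-800 cohort and Hspa1b in KIKO-700. With both copies summed, the log2 fold change was −0.05 ± 0.57 (SE) between YG8-800 and WT (edgeR, adjusted p = 0.993) and 0.69 ± 0.48 between KIKO-700 males and females (adjusted p = 0.833). The sign of Hspa1b was unstable. Its log2 fold change was −0.03 ± 0.62 with all libraries and 1.08 without WT 2 (edgeR, unadjusted p = 0.104, adjusted p = 0.997), and it was also above 0 with all libraries by limma-voom (0.23) and without YG8-800 1 (0.25). In the KIKO-700 comparison Hspa1a went from 0.36 ± 0.50 to −0.50 ± 0.44 without male 1, and neither value passed the test.

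Hspa8 (chr9:40800984-40810087, plus strand) encodes the constitutive HSC70, which also uncoats clathrin vesicles and delivers proteins to lysosomes. It was at 76.2, 105, 96.5 and 112 CPM in WT and at 66.4, 137, 89.2 and 115 CPM in YG8-800, and these ranges overlapped. The log2 fold change was 0.09 ± 0.27 (edgeR, adjusted p = 0.977). In KIKO-700 it was at 103, 90.0 and 94.6 CPM in females and at 150, 73.5 and 75.8 CPM in males, with male 1 above all females and the other males below them. The log2 fold change of 0.05 ± 0.24 became −0.36 ± 0.13 without male 1 (edgeR, adjusted p = 0.0916).

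Hspa8 has near-identical pseudogenes, to which reads were also assigned. The last 500 bases of its transcript matched 6 processed pseudogenes over at least the read length of 86 bases with 95% identity or more, and over the 14 libraries these held 30880 counts beside 11723 of Hspa8, or 72.5% of the sum. Gm8355 and Gm15459 held most of them, 17289 and 11779. The share assigned to the pseudogenes was 32.2% in WT 2 and 30.5% in WT 3, and it was between 69.5% and 85.0% in the other 12 libraries. The sum of Hspa8 and its pseudogenes was 262, 154, 139 and 414 CPM in WT and 442, 452, 359 and 492 CPM in YG8-800. WT 2 and WT 3 were thus the lowest of the 14 libraries in the sum but not in Hspa8 itself. With the pseudogene counts added, the log2 fold change between YG8-800 and WT was 0.88 ± 0.34 (edgeR, unadjusted p = 0.0222, adjusted p = 0.787), and with WT 2 and WT 3 left out it was 0.39 ± 0.32 (unadjusted p = 0.233). In KIKO-700 the sum was 435, 394 and 404 CPM in females and 541, 241 and 275 CPM in males, and the log2 fold change was −0.23 ± 0.25. The level of Hspa8 is therefore uncertain, and whether the reads in the pseudogenes come from Hspa8 transcripts was not tested. Hspb1 had 1 such pseudogene, Hsp25-ps1, to which 17.0% of the sum of their counts was assigned, again least in WT 3 (2.93%) and WT 2 (7.05%). The other 8 members had no such copy among the counted genes.

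**Figure D2:**
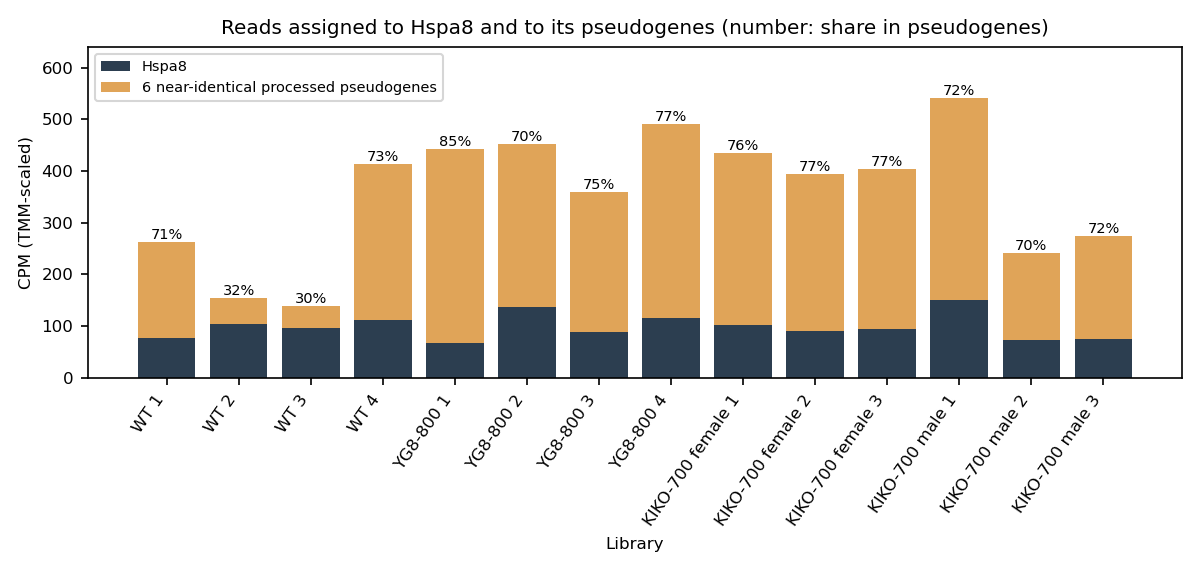
TMM-scaled CPM assigned to Hspa8 (dark) and to its 6 near-identical processed pseudogenes (light) in each library, with the share in the pseudogenes above each bar. The share is 32.2% in WT 2 and 30.5% in WT 3 and at least 69.5% elsewhere.

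Hsph1 (chr5:149614287-149636376, minus strand) encodes HSP110, the nucleotide exchange factor of HSP70, and Dnajb1 (chr8:83608193-83612653, plus strand) encodes the HSP40 that loads HSP70 with clients. Hsph1 was at 20.1, 7.72, 5.21 and 12.4 CPM in WT and at 12.4, 13.5, 18.0 and 16.6 CPM in YG8-800. The WT libraries spread on both sides of the YG8-800 ones, and the log2 fold change was 0.45 ± 0.35 (edgeR, adjusted p = 0.884). Without WT 1, the highest WT library, it was 0.84 (edgeR, unadjusted p = 0.0205, adjusted p = 0.819). In KIKO-700, Hsph1 was at 15.5, 15.7 and 13.1 CPM in females and at 27.1, 9.71 and 11.3 CPM in males. Male 1 was above all females and the other males were below them. The log2 fold change was 0.11 ± 0.33 with male 1 and −0.48 ± 0.17 without it (edgeR, adjusted p = 0.977 and 0.0818).

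Dnajb1 was at 12.3, 14.6, 6.51 and 10.01 CPM in WT and at 6.50, 8.50, 13.6 and 15.3 CPM in YG8-800, with a log2 fold change of 0.04 ± 0.33 (edgeR, adjusted p = 0.989). In KIKO-700 it was at 30.1, 24.7 and 31.5 CPM in females and at 36.3, 15.6 and 19.0 CPM in males. Males 2 and 3 were below every female and male 1 was above every female. With all libraries the log2 fold change was −0.29 ± 0.26 (edgeR, adjusted p = 0.882), and without male 1 it was −0.72 ± 0.15 (adjusted p = 0.0047), so that the call, though not the direction, rested on leaving this library out.

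Hsp90aa1 (chr12:110690605-110702728, minus strand) encodes the inducible HSP90 of the cytosol. It was at 190.2, 221, 145 and 154 CPM in WT, at 164, 192, 184 and 189 CPM in YG8-800, at 86.3, 89.4 and 86.9 CPM in KIKO-700 females and at 81.2, 86.6 and 96.1 CPM in KIKO-700 males. The log2 fold change was 0.07 ± 0.24 between YG8-800 and WT and 0.00 ± 0.15 between the sexes, with adjusted p of 0.979 and 1.00 by edgeR. Its biological coefficient of variation was the lowest of the tested members in both cohorts, at the 10.8th percentile of tested genes in the YG8-800 cohort and at the 17.5th in KIKO-700. In KIKO-700 those of Hspa1a, Hspb1, Cryab and Hsph1 were at the 98.4th, 96.8th, 95.9th and 95.5th percentiles.

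Hspb1 (chr5:135887919-135889563, plus strand), the small heat shock protein HSP25 that binds actin, and Cryab (chr9:50751325-50756636, plus strand), αB-crystallin, varied together. Hspb1 was at 54.2, 40.9, 64.6 and 97.9 CPM in WT and at 95.9, 44.7, 81.8 and 97.8 CPM in YG8-800. Cryab was at 885, 1125, 968 and 2345 CPM in WT and at 1617, 1082, 1292 and 1295 CPM in YG8-800. WT 4 was the highest library of its cohort for both genes, level with YG8-800 4 for Hspb1 and well above all others for Cryab. Fold changes on the log2 scale were 0.34 ± 0.32 for Hspb1 (edgeR, adjusted p = 0.907) and 0.01 ± 0.35 for Cryab (adjusted p = 0.998). Without WT 4 they were 0.64 and 0.47, with unadjusted p of 0.0547 and 0.105 by edgeR.

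In KIKO-700, Hspb1 was at 86.3, 95.9 and 91.7 CPM in females and at 175, 60.8 and 70.1 CPM in males. Cryab was at 1389, 1252 and 1409 CPM in females and at 2677, 1109 and 996 CPM in males. For both genes male 1 was the highest and the other males were the lowest libraries. The log2 fold change of Hspb1 was 0.15 ± 0.34 and turned to −0.48 ± 0.13 without male 1 (edgeR, adjusted p = 0.967 and 0.0265). That of Cryab was 0.23 ± 0.33 and turned to −0.36 ± 0.13 (adjusted p = 0.946 and 0.0908). Over the 14 libraries, after subtraction of group means, Pearson's r between Hspb1 and Cryab was 0.82 (Spearman's rho 0.73), and r was 0.76 without KIKO-700 male 1 and YG8-800 2, the libraries farthest from the median of Hspb1. This was the highest r of the 45 pairs of members, whose median was 0.15. Both values of a library come from the same RNA and are scaled by the same factor, and the correlations are descriptions.

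Hspb6 (chr7:30552178-30555443, plus strand), HSP20, and Hspb7 (chr4:141420779-141425311, plus strand), the cardiovascular heat shock protein that binds sarcomeric filaments, were the members whose ranges did not overlap between the KIKO-700 sexes. After subtraction of group means, r between them over the 14 libraries was 0.0053 (Spearman's rho 0.20), and it was 0.55 without YG8-800 2 and YG8-800 4, the libraries farthest from the median of Hspb6. It was −0.20 without WT 2 and KIKO-700 male 1, so its sign depended on the libraries left out. Between Hspb6 and Hspb1, r over the 14 libraries was 0.50. Hspb6 was at 598, 443, 583 and 719 CPM in WT and at 551, 387, 534 and 730.4 CPM in YG8-800, with a log2 fold change of −0.06 ± 0.28 (edgeR, adjusted p = 0.986). It was at 788, 982 and 975 CPM in KIKO-700 females and at 1102, 1396 and 1108 CPM in males. All males were above all females. In males the log2 fold change was 0.39 ± 0.16 (edgeR, unadjusted p = 0.0345, adjusted p = 0.663), and without male 1 it was 0.45 ± 0.14 (adjusted p = 0.0476).

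Hspb7 was at 120.5, 130.2, 228 and 265 CPM in WT and at 67.0, 229, 95.6 and 112 CPM in YG8-800. The groups overlapped through YG8-800 2, and the log2 fold change was −0.55 ± 0.39 (edgeR, adjusted p = 0.876). Without YG8-800 2 it was −1.0003 (edgeR, unadjusted p = 0.0160, adjusted p = 0.920), and with the log2 level of Xist as a covariate it was −0.86 (unadjusted p = 0.0265, adjusted p = 0.810). In KIKO-700, Hspb7 was at 207, 208 and 215 CPM in females and at 275, 583 and 405 CPM in males, so that the group means were 210.0 ± 4.23 (SD, n = 3) and 421 ± 155 CPM (SD, n = 3). All males were above all females. Males against females gave a log2 fold change of 1.00 ± 0.23 (edgeR, unadjusted p = 0.000741, adjusted p = 0.336), which ranked 24th of the 11801 genes by p. By DESeq2 the adjusted p was 0.0106, by limma-voom it was 0.496, and by edgeR without male 1 the log2 fold change was 1.23 ± 0.14 (adjusted p = 7.71e-06). Male 1, the library with the highest Cryab and Hspb1, had the lowest Hspb7 of the males.

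**Figure D3:**
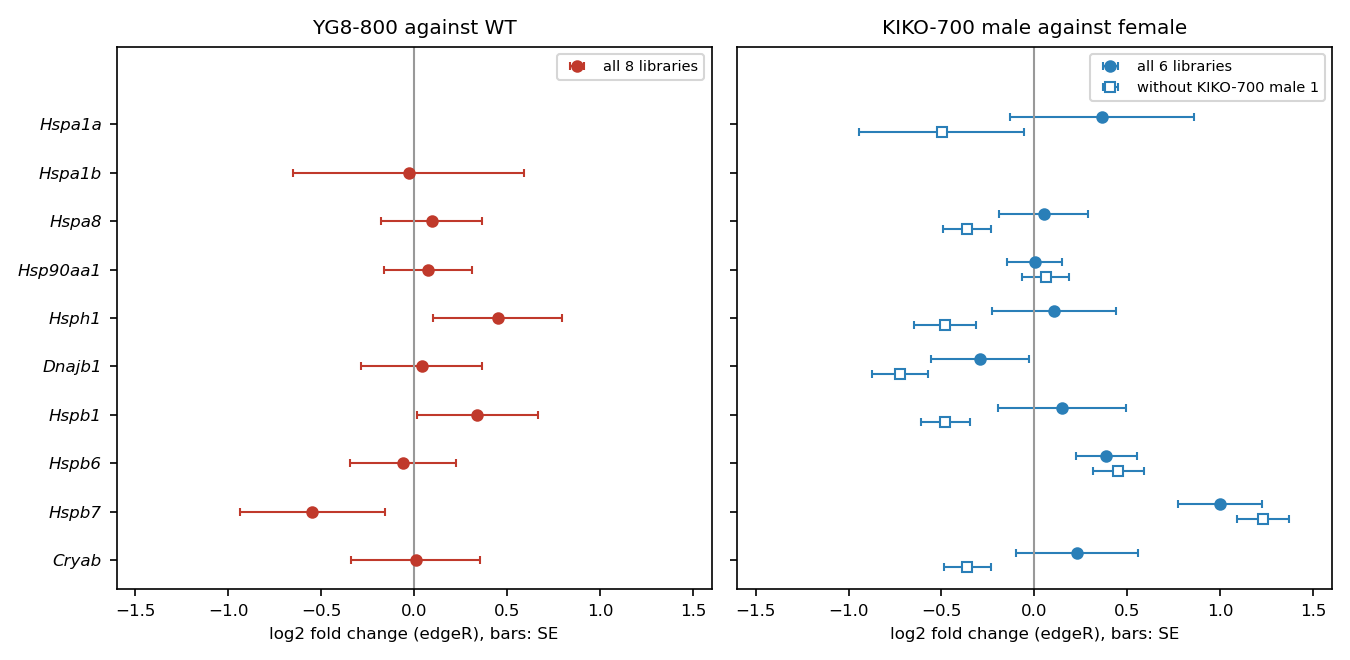
Log2 fold change with its SE (bars) of each tested member by edgeR, for YG8-800 against WT (left) and for KIKO-700 males against females (right), with all libraries (filled) and without KIKO-700 male 1 (open squares). Without male 1, Hspa1a, Hspa8, Hsph1, Hspb1 and Cryab move from positive to negative values, Dnajb1 moves further below 0, and Hspb6 and Hspb7 remain positive.

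KIKO-700 male 1 was described further after its values had been seen. Its log2 CPM was at least 1 above the mean of the other males for 7 of the 10 members, as it was for 2.19% of the genes tested. The median difference of the members was 1.21, and that of all genes was 0.02. Folds here are 2 to the power of these log2 differences, whose prior count of 2 makes them smaller than ratios of CPM for genes of low counts. The fold over the other males was 3.25 for Hspa1a, 3.20 for Hspa1b, 2.68 for Hspb1, 2.55 for both Hsph1 and Cryab, 2.09 for Dnajb1 and 2.01 for Hspa8. Hsp90aa1, Hspb6 and Hspb7 were at 0.89, 0.886 and 0.566 of the other males. No other library had more than 2 members at least 1 log2 unit above the rest of its group. In WT 2 these were Hspa1a and Hspa1b, with folds of 5.92 and 4.49 over the other WT libraries by the same measure. Hspb1, Hspb6, Hspb7 and Cryab were below the other WT libraries there, as was Hsph1 (log2 difference −0.49). Dnajb1 (0.64), Hsp90aa1 (0.45) and Hspa8 (0.16) were above them. Hspb6 and Hspb7 were thus below the rest of the group in both WT 2 and male 1, whereas Hspb1 and Cryab were low in WT 2 and high in male 1.

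**Figure D4:**
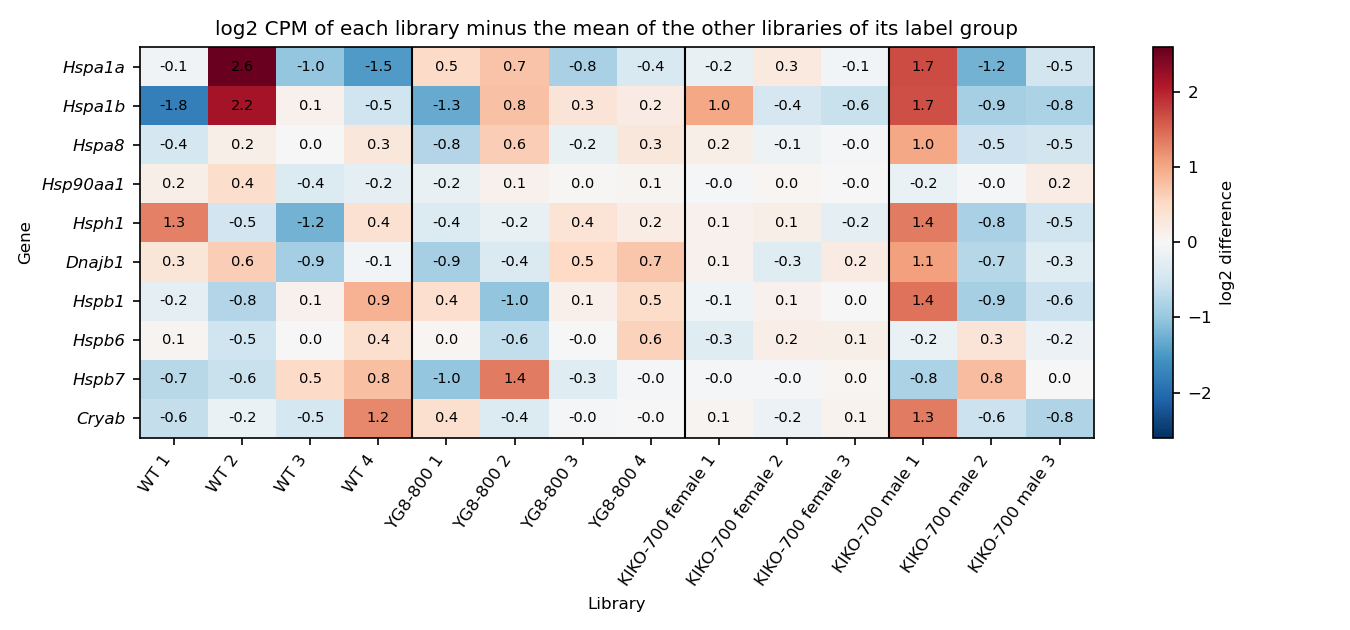
Log2 CPM of each member (rows) in each library (columns) minus the mean of the other libraries of its label group, with the value in each cell. In KIKO-700 male 1, 7 of the 10 members are at 1 or more, and in WT 2 only Hspa1a and Hspa1b are.

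Other chaperone lists did not share the size of the shift of KIKO-700 male 1, though some leaned upward. The median log2 difference of this library from the other males was −0.08 for 7 other cytosolic HSP70 and HSP110 genes (3 above 0). It was 0.26 for 13 genes of the other HSP90 and its co-chaperones (11 above 0). For 17 other HSP40 genes and HSP70 co-chaperones it was 0.07 (9 above 0). For 4 genes listed as other small heat shock proteins it was −0.48 (1 above 0). It was 0.28 for 8 TRiC chaperonin subunits (7 above 0) and 0.13 for 14 ER chaperones (8 above 0). For 15 mitochondrial chaperones and proteases it was 0.30 (9 above 0). Over all genes tested the median was 0.02, and 51.2% were above 0. Single genes of these lists were high, among them Fkbp5 (1.12), an HSP90 co-chaperone induced by glucocorticoids, Hspa2 (1.10), an HSP70 gene, and Dnaja1 (1.05), an HSP40 gene. Others were low by as much, Pdia4 (−1.68) of the ER chaperones and Dnajb5 (−1.12) of the HSP40 genes. These were named after their values were seen. Hsf1 itself was counted 13 times in male 1 and was 1.11 log2 units below the other males, Hsp90ab1, the constitutive HSP90, was 0.18 above them, and Bag3, a co-chaperone of HSP70 and small heat shock proteins, was 0.46 above them. The medians of the marker lists in male 1 were 0.23 for 10 cardiomyocyte markers, 0.10 for 9 atrial markers, −0.40 for 10 fibroblast markers, −0.04 for 9 endothelial markers, −0.25 for 7 smooth muscle markers, −0.02 for 5 blood markers, −0.20 for 6 leukocyte markers and 0.06 for 14 immediate early genes. Single markers differed by 1 log2 unit or more, as many members did. The low ones were Col1a2 (−1.49) and Col3a1 (−1.10) of the fibroblast list, Tagln (−1.06) of smooth muscle and Ttn (−1.02) of cardiomyocytes. Egr1 (−1.48), Klf6 (−1.24) and Jun (−1.18) of the immediate early genes were low too, although 8 of these 14 genes were above the other males. Tbx5 (1.12) of the atrial list was high. All of these single genes were picked once the values were known. In WT 2 the median difference from the other WT libraries was −1.08 for the 9 atrial and 0.57 for the 10 fibroblast markers. The other cell type lists lay between −0.41 (smooth muscle) and 0.21 (blood). The median was 0.32 for the 14 ER chaperones (12 above 0), 0.26 for 16 immediate early genes and 0.02 for all genes. Single genes differed by more there, among them Nr4a1 (2.93), Dnajb5 (2.35), Dnaja1 (1.10), Tnnt2 (−1.37) and Myl2 (−1.34), named after their values were seen. Of these, Dnaja1 was high in both WT 2 and male 1, whereas Dnajb5 was low in male 1. The part of these in the levels of the members was not tested.

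Between the label groups, the chaperone lists held few genes past the unadjusted threshold and none past the adjusted one by edgeR. In YG8-800 against WT, 1 of 13 HSP90 co-chaperone genes was lower at an unadjusted p under 0.05 (6.05% of all genes in either direction), Unc45b, a myosin chaperone (log2 fold change −0.63, unadjusted p = 0.0183), and 1 of 17 HSP40 and co-chaperone genes was, Bag4 (−0.92, unadjusted p = 0.0163). Of the heat shock factor list 3 genes were tested, Hsf1, Hsf2 and the binding protein gene Hsbp1, and none passed either threshold there. None of 7 HSP70 and HSP110 genes, 4 genes listed as small heat shock proteins, 8 TRiC subunits and 14 ER chaperones passed either. The same held for 15 mitochondrial chaperones and proteases and 16 immediate early genes. The medians of these lists lay between −0.08 and 0.26, beside −0.01 for all genes. Beside these, 1 of 9 atrial markers was lower at an unadjusted p under 0.05 (median −0.77), as were 2 of 10 fibroblast markers (median −0.31), 1 of 6 leukocyte markers (median −0.44) and none of 5 blood markers (median −0.51), and their part in the levels of the members was not tested. Between KIKO-700 sexes, 3 of 17 HSP40 and co-chaperone genes were higher in males at an unadjusted p under 0.05, Dnajc7 (0.66), Dnajb6 (0.52) and Hspbp1 (0.42), with adjusted p from 0.630 to 0.633, where 7.14% of all genes passed in either direction. The other chaperone lists had none. Of 14 immediate early genes, 4 were higher and 1 was lower, among them Ier2 (1.06) and Ier3 (−0.45), beside the same 7.14% of all genes. Of the cell type markers, 1 of 9 endothelial genes (Cdh5, 0.44) and 1 of 7 smooth muscle genes (Smtn, 0.53) were higher in males at an unadjusted p under 0.05, and 1 of 10 fibroblast genes (Lum, −0.48) and 1 of 6 leukocyte genes (Adgre1, −0.74) were lower. No cardiomyocyte, atrial or blood marker passed that threshold, and the part of the markers in the levels of the members was not tested. Hsf1, the activator of the heat shock response, was at 4.14 ± 2.24 CPM in WT, 4.65 ± 1.85 in YG8-800 (SD, n = 4 each), 1.98 ± 0.144 in KIKO-700 females and 2.95 ± 1.21 in KIKO-700 males (SD, n = 3 each), and it passed neither test. Hsp90ab1 was at 634 ± 129.9, 700 ± 172, 836 ± 21.5 and 815 ± 76.3 CPM in these groups, and Bag3 at 44.4 ± 12.6, 43.0 ± 8.82, 74.3 ± 8.20 and 81.2 ± 15.9 CPM. Fos, an immediate early gene, was counted at most 11 times in any library and was tested in neither comparison.

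Across the cohorts, 3 of the 10 members had ranges that did not overlap, as did 11.4% of 11208 genes. Dnajb1 was at 15.6 to 36.3 CPM in the 6 KIKO-700 libraries and at 6.50 to 15.3 CPM in the 8 libraries of the YG8-800 cohort. Hspb6 was at 788 to 1396 CPM in KIKO-700 and at 387 to 730.4 CPM in the other cohort. Hsp90aa1 was lower in KIKO-700, at 81.2 to 96.1 CPM beside 145 to 221 CPM. Cohort, genotype and batch cannot be told apart, and these levels were not tested. For Cryab the group means ran from YG8-800 (1322 ± 221 CPM) over WT (1331 ± 683) and KIKO-700 females (1350 ± 85.3) to KIKO-700 males (1594 ± 940). The first 3 of these means differed by less than the SD of any of their groups, and the male mean rested on male 1, with the other males below all females.

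For Hspa1a and Cryab, the genes with the most similar pattern were found among 5024 genes of at least 10 CPM, by Pearson's r of log2 CPM over 14 libraries after subtraction of group means. Nearest to Hspa1a were Ctnnb1 (r = 0.92), Eif4g2 (0.91), Grb10 (0.91), Thbd (0.91) and Hipk3 (0.90). The values without WT 2 and KIKO-700 male 1 were 0.75, 0.81, 0.81, 0.89 and 0.85. Nearest to Cryab were Jup (0.95), Ptdss1 (0.91), Tmx1 (0.89), Nfkbia (0.89) and Slc25a34 (0.89), and without KIKO-700 male 1 and WT 4 the values were 0.87, 0.79, 0.81, 0.73 and 0.81. All these genes were picked for high r over the same 14 libraries, so the values on the remaining libraries are no independent test. The median r of the 10 pairs among Hspa1a, Hspa1b, Hsph1, Dnajb1 and Hspa8 fell from 0.46 to 0.09 without WT 2 and KIKO-700 male 1, and that of Hspa1a with Hspa1b from 0.60 to 0.01. In the libraries left, Hspa1a was counted 2 to 17 times and Hspa1b 4 to 23 times, and the part of such low counts in r was not tested. Hspa1b with Hspa8 went from 0.74 to 0.76 and Hsph1 with Dnajb1 from 0.67 to 0.71, while r fell for all other pairs.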

How the data were processed

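Whole hearts were flash frozen, and RNA was extracted and made into 3′ tag libraries (Lexogen QuantSeq 3′ FWD) that were sequenced as single reads of 86 bases. The authors deposited raw counts per Ensembl gene for each library. The submitters' processing notes name STAR 2.5.0a, HTSeq 0.6.1 and GRCm38.p6, while the study's methods name featureCounts, and the difference was not settled. Of 54532 identifiers, 54409 matched GENCODE M21.

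Each cohort was fitted alone with edgeR 4.0.16 (R 4.3.3), using TMM, filterByExpr and the quasi-likelihood test, with Benjamini-Hochberg adjustment over all genes tested and a threshold of 0.05. DESeq2 1.42.0, limma-voom (limma 3.58.1), other filters and scalings, a replicate block and each library left out were alternatives. Adding pseudogene counts was chosen after seeing the data. Log2 CPM used a prior count of 2. Named genes were all members, up to 4 genes of each other list by smallest p, and Hsf1, Hsp90ab1, Bag3, Fos and Xist. For Hspa1a and Cryab, the 5 most similar genes were also named.

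Members and lists were chosen with earlier results of these data known. Replicates are separate samples by their labels, and p-values set the difference between groups against the spread between replicates, moderated over genes. Same-numbered libraries were not treated as pairs. No label was changed, and withheld items are not reported here. Sequences are from RefSeq. The model was tested on simulated data. Its counts were drawn separately for each gene and library, so shifts of many genes in a single library were not covered.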

Additional observations from a re-analysis of the deposited data

Results flagged for a closer look

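Among the 20 sets of 4 libraries tested (10 members in WT and in YG8-800), Dixon's criterion singled out 2, and chance flags about 1 in 20 groups. Hspa1a was at 4.06 CPM in WT 2, and its gap to the next WT library was 0.854 of the range of the group. Cryab was at 2345 CPM in WT 4, with a gap of 0.835 of the range. The KIKO-700 groups of 3 were not tested in this way.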

How the results depend on the processing

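In YG8-800 against WT no member passed an adjusted p under 0.05 in any alternative. Over all genes, edgeR's 0 calls became 7 by DESeq2 and 107 with no filter (1727 at an unadjusted p), and 0 to 146 with 1 library left out (484 to 1695 unadjusted), the 146 without WT 4. Members called at an unadjusted p numbered 1 with the Xist covariate, 1 with pseudogene counts added, and 0 to 1 with 1 library left out. With library size alone, which moved the median of all genes to −0.21, the log2 fold change was −0.0427 for Hspa8, −0.15 for Hsp90aa1, −0.23 for Dnajb1 and −0.13 for Cryab. By limma-voom it was 0.23 for Hspa1b and −0.0308 for Dnajb1, and with the Xist covariate it was −0.0680 for Hspa8. With pseudogene counts added and WT 2 and WT 3 left out it was 1.49 for Hspa1b, −0.0591 for Hsph1 and −0.27 for Cryab. With 1 library left out it ran from −0.16 to 0.47 for Cryab, −0.17 to 0.23 for Dnajb1, −0.0153 to 0.19 for Hsp90aa1, −0.39 to 1.08 for Hspa1b, −0.0751 to 0.25 for Hspa8 and −0.23 to 0.0821 for Hspb6.

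Between KIKO-700 sexes, DESeq2 and the fit with no filter each called 1 member at an adjusted p, Hspb7. Over all genes, 8 calls became 18 by DESeq2, 105 with no filter (1475 unadjusted) and 2 with at least 10 counts in every library. With 1 library left out, 4 to 864 genes and 0 to 4 members passed the adjusted threshold, and 460 to 2610 genes and 1 to 7 members the unadjusted one, the highest of each without male 1. With library size alone 1 member passed the unadjusted threshold, and Hsp90aa1 was at −0.00952. By limma-voom Hspa8 was at −0.0288, Hsp90aa1 at −0.00363, Hsph1 at −0.0424 and Hspb1 at −0.0153. Hsp90aa1 was at −0.00356 without mitochondrial DNA and Gm genes, and Hspa8 at −0.23 with pseudogene counts. With 1 library left out the log2 fold change ran from −0.36 to 0.48 for Cryab, −0.0695 to 0.0608 for Hsp90aa1, −0.50 to 0.71 for Hspa1a, −0.36 to 0.23 for Hspa8, −0.48 to 0.42 for Hspb1, −0.48 to 0.36 for Hsph1 and 0.70 to 1.23 for Hspb7. Apart from the removal of libraries and the values named, the cause was not tested.

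The replicate numbers do not mark a shared animal, and same-numbered libraries deviated together by correlations from −0.23 to 0.25. With the replicate number as a block, Hspa1b was at 0.33 in YG8-800 against WT, and between KIKO-700 sexes Hspa8 was at −0.0279, Hsp90aa1 at −0.00359, Hsph1 at −0.0129 and Hspb1 at −0.0189, with 1 member at an unadjusted p under 0.05. The counts of Hspa1a and Hspa1b are too low for small differences to be detectable at this depth.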
